A study of Mus musculus with 2 samples.

Results

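Metallothionein 1 (Mt1), metallothionein 2 (Mt2), the zinc importer Slc39a1, the metal-responsive transcription factor Mtf1 and the zinc exporter Slc30a1 were described across sorted mouse satellite cells, the resident stem cells of skeletal muscle. These are 5 of the 32286 features counted. The 5 symbols were chosen by their UMI levels in the sorted libraries and in Chodl-high, Mki67-positive and Myog-positive cells. Differences between those groups are therefore given as descriptions, with no test. The GFP+ library held PAX3+ cells and the GFP− library PAX3− cells, both sorted by FACS 5 days post injury. The muscles were biceps and recto femoris, and the mice were Pax3GFP/+. In these mice 1 Pax3 allele carries the GFP reporter, so cells of both fractions have that allele, although the labels' genotype field reads wild-type. The sources used here do not state how many animals were pooled, or how the injury was made. Per fraction, 20000 cells were loaded for 1 droplet-based 3′ library. No comparison therefore has replicates, and what is compared is 1 library with the other. Intervals are at the 95% level and allow for counting error alone.

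Metallothioneins are small cysteine-rich proteins that bind zinc and copper. When free zinc rises in a cell, MTF1 binds zinc through its zinc fingers, moves to metal response elements in promoters and switches on Mt1, Mt2 and Slc30a1. SLC30A1 (ZnT1) carries zinc out of the cell across the plasma membrane, and SLC39A1 (ZIP1) carries it in. Besides metals, glucocorticoids and inflammatory cytokines that act through STAT3 are known inducers of Mt1 and Mt2 in the mouse.

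Mt1 (ENSMUSG00000031765, chr8:94179082-94180327) and Mt2 (ENSMUSG00000031762, chr8:94172664-94173568) are neighbours on the plus strand of chromosome 8 (GENCODE M21, GRCm38/mm10), and Mt1 starts 5514 bp after the end of Mt2. Slc30a1 (ENSMUSG00000037434) lies at chr1:191906767-191913247, Mtf1 (ENSMUSG00000028890) at chr4:124802104-124849800 and Slc39a1 (ENSMUSG00000052310) at chr3:90248172-90253612, all on the plus strand. Promoters of the 3 textbook MTF1 targets are shown because the metal response element is the sequence through which zinc is known to act on them. Each runs from 250 bases before to 50 bases after the RefSeq start (GRCm38.p6), 5′ to 3′ on the plus strand. Capitals mark the core of the metal response element, searched as TGCACNC or TGCGCNC on both strands. A core on the other strand shows as its reverse complement. Mt1 (chr8:94178839-94179138), Mt2 (chr8:94172368-94172667) and Slc30a1 (chr1:191906531-191906830) read:
Mt1: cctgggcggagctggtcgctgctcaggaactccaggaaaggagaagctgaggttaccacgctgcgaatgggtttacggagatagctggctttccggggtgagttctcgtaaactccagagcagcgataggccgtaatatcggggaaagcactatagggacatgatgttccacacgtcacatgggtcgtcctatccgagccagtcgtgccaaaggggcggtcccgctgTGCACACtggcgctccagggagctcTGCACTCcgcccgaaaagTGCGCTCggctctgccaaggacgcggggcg
Mt2: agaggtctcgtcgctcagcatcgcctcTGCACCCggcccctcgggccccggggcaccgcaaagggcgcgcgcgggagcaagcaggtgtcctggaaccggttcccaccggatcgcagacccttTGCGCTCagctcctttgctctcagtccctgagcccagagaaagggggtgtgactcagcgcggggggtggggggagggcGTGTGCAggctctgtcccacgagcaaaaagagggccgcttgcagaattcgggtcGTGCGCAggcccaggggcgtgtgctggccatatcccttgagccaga
Slc30a1: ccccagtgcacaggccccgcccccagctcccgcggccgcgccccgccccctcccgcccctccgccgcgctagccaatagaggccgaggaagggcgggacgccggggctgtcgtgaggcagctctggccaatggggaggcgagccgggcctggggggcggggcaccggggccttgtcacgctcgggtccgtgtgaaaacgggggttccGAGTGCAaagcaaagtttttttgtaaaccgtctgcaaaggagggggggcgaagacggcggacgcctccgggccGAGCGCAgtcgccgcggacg
The Mt1 window holds 3 cores, all on the strand of the gene. The first lies 23 bases before the RefSeq start and the other 2 within the first 26 bases after it. RefSeq and GENCODE starts differ: the Mt2 window ends at 94172667, and GENCODE starts Mt2 at 94172664. The window searched for Mtf1, chr4:124802299-124802598, lies wholly after the GENCODE start of Mtf1 at 124802104. Other starts and bases beyond the windows were not searched, so positions and counts hold for these windows only and do not rank the genes. The Mt2 window holds 4 cores, 2 on each strand, and the Slc30a1 window holds 2, both on the other strand. No core was found in the same window of Mtf1 or Slc39a1, which says only that these letters are not in those 300 bases. Of the 32851 promoters of this length in the same RefSeq table, 25.7% held at least 1 core, 7.11% at least 2, 1.97% at least 3 and 0.517% at least 4. These matches are letters and not binding data.

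Cells were barcodes with at least 1000 unique molecular identifiers (UMIs, 1 per captured transcript), a minimum of 500 genes and no more than 10% mitochondrial UMIs, which left 604 GFP+ and 2683 GFP− cells. Myogenic cells were those with under 0.1% of their UMIs in each marker list of another cell type, 517 GFP+ cells (85.6%) and 2472 GFP− cells (92.1%). Of these, 99.6% and 99.5% held a UMI of Pax7, Myf5, Myod1, Des, Myog or Chodl, and Pax7, which marks satellite cells, was seen in 81.8% and 73.3%. The cells over the macrophage limit numbered 76 in the GFP+ and 57 in the GFP− library, and those over the mural limit 4 and 122. Myogenic cells had a median depth of 19188 UMIs (GFP+) and 15057.5 UMIs (GFP−) and a median mitochondrial share of 2.60% and 4.51%. Chodl, a surface lectin known as a mark of quiescent satellite cells, reached at least 3 UMIs in 212 GFP+ cells (41.0%) and 521 GFP− cells (21.1%), called Chodl-high. Mki67, a proliferation gene, was seen in 71 GFP+ and 478 GFP− cells, and Myog, the myogenin gene of differentiating myoblasts, in 127 and 725. A further 152 GFP+ and 966 GFP− myogenic cells met none of these 3 conditions ("no state"). A cell can meet 2 of them, as 25 GFP+ and 137 GFP− cells did for Mki67 and Myog. The libraries shared 2 cell barcodes.

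Both metallothioneins stood higher in myogenic cells of the GFP+ library than in those of the GFP− library. Mt1 stood at 2594 CPM (UMIs per 1000000 UMIs of the same cells) in the GFP+ library (interval 2564 to 2625, from 27379 UMIs) and at 908 CPM in the GFP− library (899 to 917, from 38279 UMIs), a ratio of 2.86 (2.81 to 2.90). Mt2 stood at 1131 CPM in GFP+ cells (11931 UMIs) and 566 CPM in GFP− cells (23857 UMIs), a ratio of 2.0 (1.96 to 2.04). The importer Slc39a1 was higher too, at 121 CPM in GFP+ cells (1281 UMIs) and 53.1 CPM in GFP− cells (2241 UMIs), a ratio of 2.28 (2.13 to 2.45). The regulator and the exporter did not share this difference in level. Mtf1 was at 12.9 CPM in GFP+ cells (136 UMIs) and 14.4 CPM in GFP− cells (608 UMIs), a ratio of 0.894 (0.737 to 1.08). Slc30a1 was at 3.13 CPM in GFP+ cells (33 UMIs) and 3.58 CPM in GFP− cells (151 UMIs), a ratio of 0.873 (0.580 to 1.28). The intervals of the last 2 genes hold 1 and leave room for modest differences either way.

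A gene was counted as measured in a comparison where it had at least 20 CPM in at least 1 of the groups, and as higher or lower where its ratio passed 1.5-fold. By this rule 3 of the 5 genes were measured between GFP+ and GFP− myogenic cells and all 3, Mt1, Mt2 and Slc39a1, were higher, in a comparison where 3.79% of 5774 measured genes were higher and 1.63% lower. Since the choice of these genes used this contrast, the count is a description. From the highest ratio down, Mt1 was number 24, Slc39a1 number 51 and Mt2 number 81 of the 5774 genes, whose median log2 ratio was -0.09. Over all 604 GFP+ and 2683 GFP− cells the same 3 genes were higher, at ratios of 2.64 for Mt1, 1.85 for Mt2 and 2.29 for Slc39a1, where 6.94% of measured genes were higher and 2.63% lower. Genes of the dissociation stress list, which rise when tissue is digested, moved with the libraries: all 11 held UMIs in both, and their summed level in myogenic cells was 4339 CPM in GFP+ and 2311 CPM in GFP− cells. Markers of other cell types, limited by the choice of myogenic cells, summed to 17.8 CPM in GFP+ and 8.84 CPM in GFP− cells for macrophages, 20.3 and 6.38 CPM for fibro-adipogenic cells and 149 and 155 CPM for mural cells. The part of these markers, of the stress genes, of the lower mitochondrial share and of cell depth in the metallothionein difference was not tested beyond the values given below.

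Single cells spread widely around these sums. A GFP+ myogenic cell held a median of 27 Mt1 UMIs (quartiles 10 and 76, highest 327) and a GFP− cell a median of 7 (quartiles 3 and 19, highest 167). When each cell was thinned to 5000 UMIs, leaving 460 GFP+ and 2342 GFP− cells, the median was 6 Mt1 UMIs in GFP+ cells (quartiles 2 and 26) and 2 in GFP− cells (quartiles 1 and 6). The quartile ranges overlapped, and the libraries lay far apart in their upper tail, with a 90th percentile of 53.2 UMIs in GFP+ and 17 in GFP− cells. For Mt2 the thinned median was 4 UMIs in GFP+ cells (quartiles 1 and 10) and 2 in GFP− cells (quartiles 1 and 4). At least 1 Mt1 UMI was found in 90.2% of thinned GFP+ cells (87.1 to 92.8) and 78.5% of thinned GFP− cells (76.8 to 80.1), and in 96.7% and 93.3% before thinning.

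Mt1 was highest in Chodl-high cells in both libraries. It reached 5911 CPM in Chodl-high GFP+ cells and 2375 CPM in Chodl-high GFP− cells, against 1395 CPM in the other GFP+ and 622 CPM in the other GFP− myogenic cells. The ratio of Chodl-high to other cells was 4.24 in the GFP+ library (4.13 to 4.34) and 3.82 in the GFP− library (3.74 to 3.90). Mt2 showed the same order, at 2354 against 688 CPM in GFP+ cells, a ratio of 3.42 (3.30 to 3.55), and at 1241 against 434 CPM in GFP− cells, a ratio of 2.86 (2.79 to 2.94). These were the 2 members higher in Chodl-high cells, where 15.7% of measured genes in GFP+ and 8.85% in GFP− were higher, and 17.6% and 10.4% lower. In CPM, Slc39a1 differed little by this state, at 113 CPM in Chodl-high against 124 CPM in other GFP+ cells (ratio 0.906, 0.795 to 1.03) and 57.9 against 52.2 CPM in GFP− cells (ratio 1.11, 0.992 to 1.24). Per cell it was lower in the shallower Chodl-high cells, at 1.49 against 3.16 UMIs in GFP+ (ratio 0.471, 0.414 to 0.535) and 0.764 against 0.945 UMIs in GFP− cells (ratio 0.809, 0.724 to 0.902).

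Metallothionein CPM was lower in Mki67-positive and Myog-positive cells, which were also deeper than the others. In Mki67-positive cells Mt1 was at 1118 CPM in the GFP+ and 523 CPM in the GFP− library, 0.368 and 0.493 times the level of the other myogenic cells, and Mt2 at 691 and 369 CPM, 0.548 and 0.572 times. Among measured genes 10.4% in the GFP+ and 7.17% in the GFP− library were lower in Mki67-positive cells. Myog-positive cells had Mt1 at 1568 CPM in GFP+ and 524 CPM in GFP− cells, 0.506 and 0.470 times the other cells, and Mt2 at 696 and 347 CPM, 0.519 and 0.507 times. Lower in Myog-positive cells were 16.4% of measured genes in the GFP+ and 8.13% in the GFP− library. Slc39a1 in Myog-positive cells, at 92.8 CPM in GFP+ and 41.7 CPM in GFP− cells, was 0.685 and 0.702 times the other cells, just short of the 1.5-fold limit. Between them and the Chodl-high cells lay those of no state, with Mt1 at 1685 CPM in GFP+ and 852 CPM in GFP− cells and Mt2 at 843 and 587 CPM.

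In each of these 4 cell sets the GFP+ library had the higher Mt1, Mt2 and Slc39a1. For Mt1 the ratio of GFP+ to GFP− was 2.49 in Chodl-high, 2.14 in Mki67-positive, 2.99 in Myog-positive and 1.98 in no-state cells. Mt2 ratios ran from 1.44 in no-state cells to 2.01 in Myog-positive cells, and those of Slc39a1 from 1.95 in Chodl-high to 2.88 in Mki67-positive cells. Genes higher by 1.5-fold made up 6.81% in Chodl-high, 3.86% in Mki67-positive, 3.55% in Myog-positive and 3.08% in no-state cells, so Mt2 in no-state cells was the single case of 12 below the limit. Because the GFP+ library had a larger share of Chodl-high cells, its levels were also summed with each state given its share of the GFP− UMIs. The ratio was then 2.28 for Mt1 and 1.67 for Mt2, and 2.33 for Slc39a1. All 3 ratios were above 1.5-fold with the states weighted alike.

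**Figure D1:**
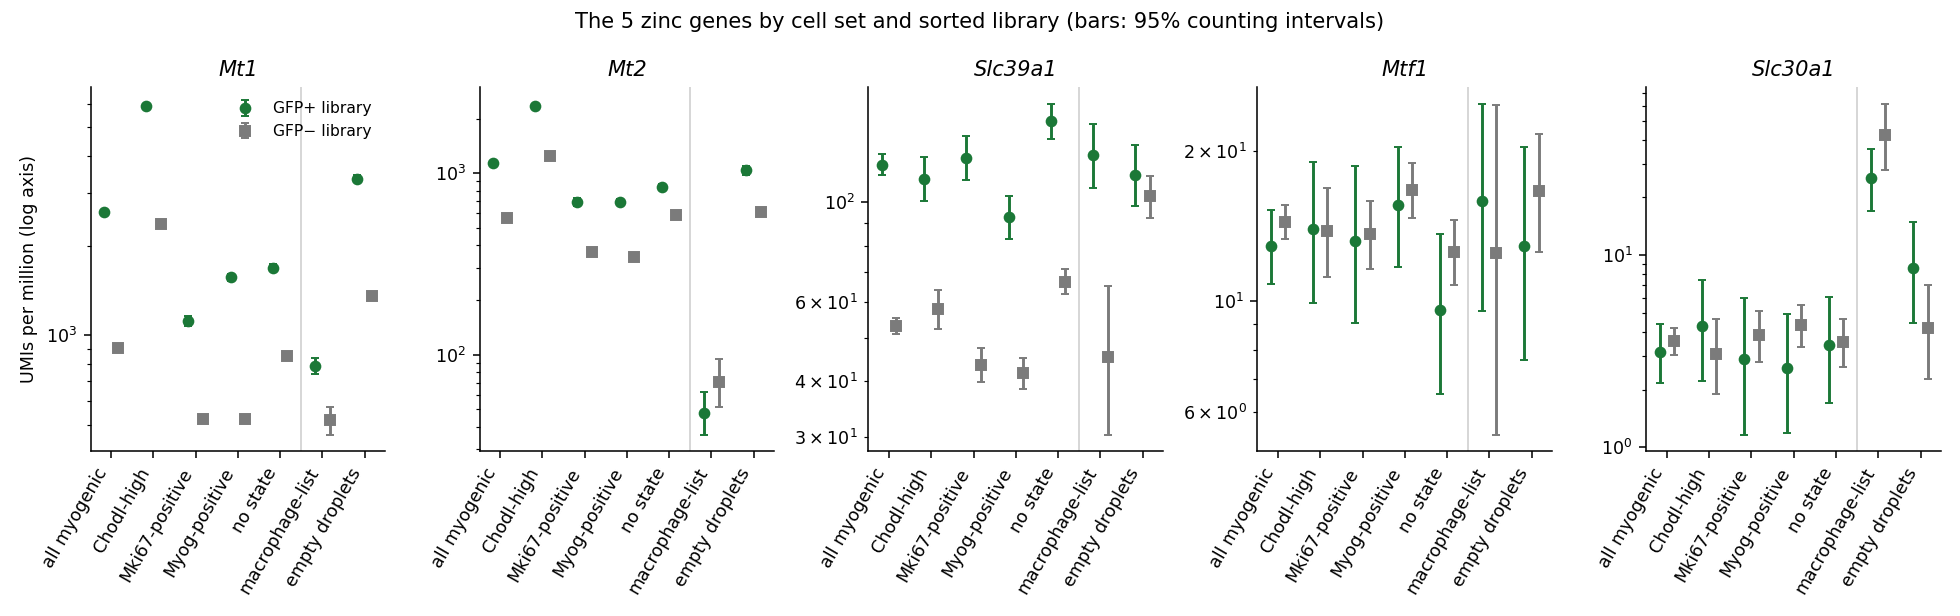
Level of each gene in CPM (log axis) by cell set, GFP+ library as green circles and GFP− library as grey squares, with 95% counting intervals; sets right of the vertical line are not myogenic cells. Mt1, Mt2 and Slc39a1 were higher in GFP+ cells in all 4 states, Mt1 and Mt2 peaked in Chodl-high cells at 5911 and 2354 CPM in the GFP+ library, and Slc30a1 stood higher in macrophage-list cells than in any myogenic set.

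Since states overlap, cells with only 1 of them were also set against cells with none. Cells with Chodl alone had 3.55 times the Mt1 and 2.76 times the Mt2 level of no-state cells in the GFP+ library, and 3.09 and 2.32 times in the GFP− library, where 12.8% and 5.79% of measured genes were higher. With Mki67 alone Mt1 was at 0.543 times in GFP+ and 0.561 times in GFP− cells, and Mt2 at 0.710 and 0.608 times, where 8.43% and 6.92% of genes were lower, so Mt2 in GFP+ cells did not pass 1.5-fold. With Myog alone Mt1 was at 0.827 times in GFP+ and 0.564 times in GFP− cells, Mt2 at 0.643 and 0.559 times and Slc39a1 at 0.578 and 0.636 times, where 18.3% and 11.9% of genes were lower. Mt1 in Myog-positive GFP+ cells was thus nearer to the no-state level than the comparison with all other cells showed. Slc39a1 with Chodl alone was at 0.730 times the no-state level in GFP+ (0.627 to 0.848) and 0.888 times in GFP− cells (0.779 to 1.01). With Mki67 alone it was at 0.915 and 0.684 times, and none of these ratios passed 1.5-fold.

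Ordered by level, Mt1 in GFP+ cells ran from Chodl-high through no-state and Myog-positive to Mki67-positive cells, with no overlap of counting intervals between neighbours. In GFP− cells the lowest pair, Myog-positive and Mki67-positive, could not be told apart at 524 and 523 CPM. For Mt2 the lowest pair in GFP+ cells was likewise level, at 696 and 691 CPM. Slc39a1 had another order, highest in no-state cells at 152 CPM in GFP+ and 66.6 CPM in GFP− cells and lowest in Myog-positive cells, and its neighbours overlapped except Chodl-high and Mki67-positive GFP− cells. Mtf1 ranged from 9.60 to 15.6 CPM over the GFP+ and from 12.5 to 16.7 CPM over the GFP− states, highest in Myog-positive cells in both. Its ratio of Myog-positive to other cells was 1.35 in GFP+ (0.939 to 1.93) and 1.26 in GFP− cells (1.07 to 1.49). With Myog alone against no state it was 1.72 (1.04 to 2.86) and 1.43 (1.16 to 1.77), at levels under the 20 CPM limit. Slc30a1 lay between 2.60 and 4.28 CPM in GFP+ and between 3.05 and 4.33 CPM in GFP− states, on 7 to 64 UMIs per set. No order among the states can be read from counts so low.

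The count of Chodl gave a finer scale than a single threshold. Myogenic cells with 0 Chodl UMIs had Mt1 at 1028 CPM in the GFP+ and 507 CPM in the GFP− library. At 1 to 2 Chodl UMIs, just outside the Chodl-high limit, it was 3659 and 1486 CPM, and at 3 to 9 UMIs, just inside, 6100 and 2332 CPM. Cells with 10 or more had 5614 and 2547 CPM. Mt1 was thus higher at each step in GFP− cells, and in GFP+ cells up to the last step. On the scale of Mt1 UMIs per cell the climb was unbroken, at 28.6, 61.0, 73.7 and 87.1 UMIs in GFP+ cells and 9.44, 22.0, 30.3 and 36.2 UMIs in GFP− cells. Median depth in these bins was 25658.5, 16267, 9269.5 and 14020.5 UMIs in GFP+ and 16764, 13269.5, 11882 and 11547 UMIs in GFP− cells. The last GFP+ step thus went to deeper cells, and the part of depth in it was not tested. Slc39a1 stayed within 110.5 to 149 CPM in GFP+ and 51.9 to 61.6 CPM in GFP− cells over the same 4 bins. Per cell it was at 3.35, 2.48, 1.38 and 1.71 UMIs in GFP+ and 0.968, 0.807, 0.739 and 0.875 UMIs in GFP− cells, lower in each Chodl-positive bin than at 0 Chodl UMIs. Chodl-high cells also carried more of the dissociation stress list, at 8630 CPM summed in GFP+ and 4149 CPM in GFP− cells, against 2788 and 1953 CPM in the other cells. Markers of other cell types moved with Chodl too. The fibro-adipogenic list, with 4 of its 6 genes seen in Chodl-high cells, summed to 58.9 against 6.32 CPM in GFP+ and 13.5 against 4.99 CPM in GFP− cells. The mural list of 8 genes, of which 6 were seen in Chodl-high GFP+ and 8 in Chodl-high GFP− cells, summed to 258 against 110 CPM and 246 against 137 CPM. The macrophage list did not follow, at 18.6 against 17.5 CPM in GFP+ and 8.0 against 9.01 CPM in GFP− cells. The part of the stress, fibro-adipogenic and mural genes in the Chodl difference was not tested.

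**Figure D2:**
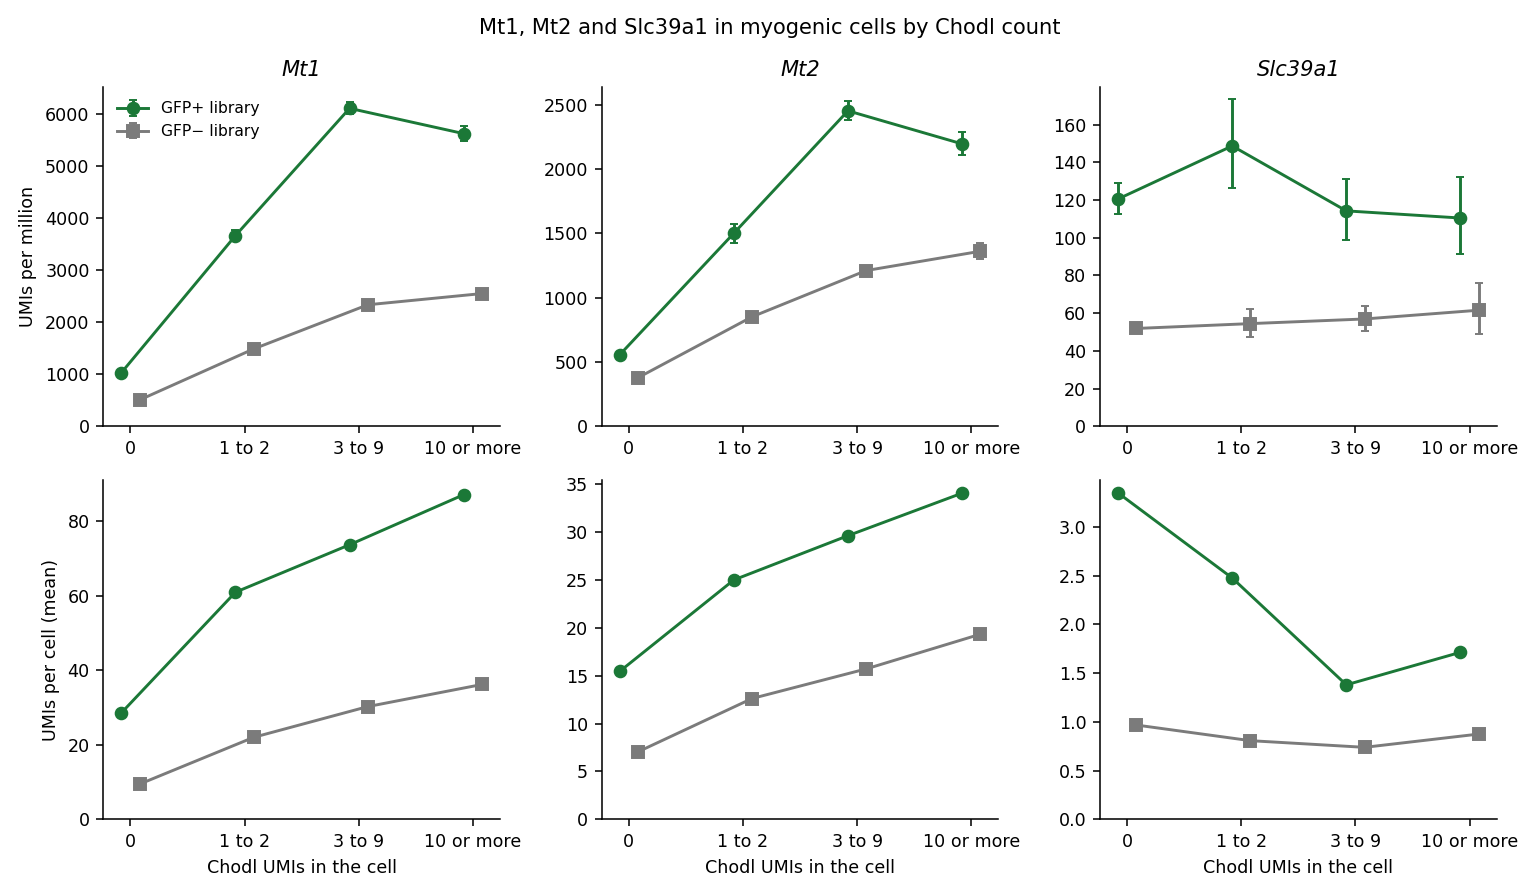
Mt1, Mt2 and Slc39a1 in myogenic cells by the number of Chodl UMIs in the cell, as CPM (top, with 95% counting intervals) and as mean UMIs per cell (bottom), GFP+ library as green circles and GFP− library as grey squares. At 10 or more Chodl UMIs Mt1 was at 87.1 UMIs per cell in GFP+ and 36.2 in GFP− cells, against 28.6 and 9.44 at 0. Slc39a1 per cell was at 1.71 and 0.875 UMIs, against 3.35 and 0.968 at 0. As CPM, Mt1 was at 5614 and 2547, against 1028 and 507 at 0. Slc39a1 as CPM stayed between 110.5 and 149 in GFP+ and between 51.9 and 61.6 in GFP− cells.

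Cell depth moved strongly with the metallothionein share of a cell's UMIs. In GFP+ myogenic cells Mt1 was at 16434 CPM in those of 1000 to 5000 UMIs and at 725 CPM in those of 40000 or more, and in GFP− cells at 4291 and 399 CPM. The mean number of Mt1 UMIs per cell varied far less, with 55.8 and 37.5 at these ends in GFP+ cells and 13.1 and 20.4 in GFP− cells. Slc39a1 behaved unlike Mt1: it held 0.298 UMIs per cell in the shallowest and 5.52 in the deepest GFP+ cells, and 0.138 and 1.79 in GFP− cells, and its CPM lay between 86.8 and 131 in GFP+ and between 35.1 and 70.5 in GFP− cells. In each of the 5 depth bins Mt1 and Mt2 were higher in GFP+ than in GFP− cells, on both scales. From the shallowest bin to the deepest, the ratio of GFP+ to GFP− CPM was 3.83, 3.42, 4.49, 3.02 and 1.82 for Mt1 and 2.78, 2.48, 3.11, 1.87 and 1.84 for Mt2. Mt1 thus lay above the 2.86 of all depths in 4 bins and below it in the deepest, which held 42 GFP+ and 78 GFP− cells. Mt2 lay above its ratio over all depths in the 3 shallower bins and below it in the other 2. Slc39a1 ran the other way, with ratios of 1.93 (0.935 to 3.97), 1.23 (0.878 to 1.70), 2.16, 2.64 and 3.05, and the intervals of the 2 shallowest bins hold 1.

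**Figure D3:**
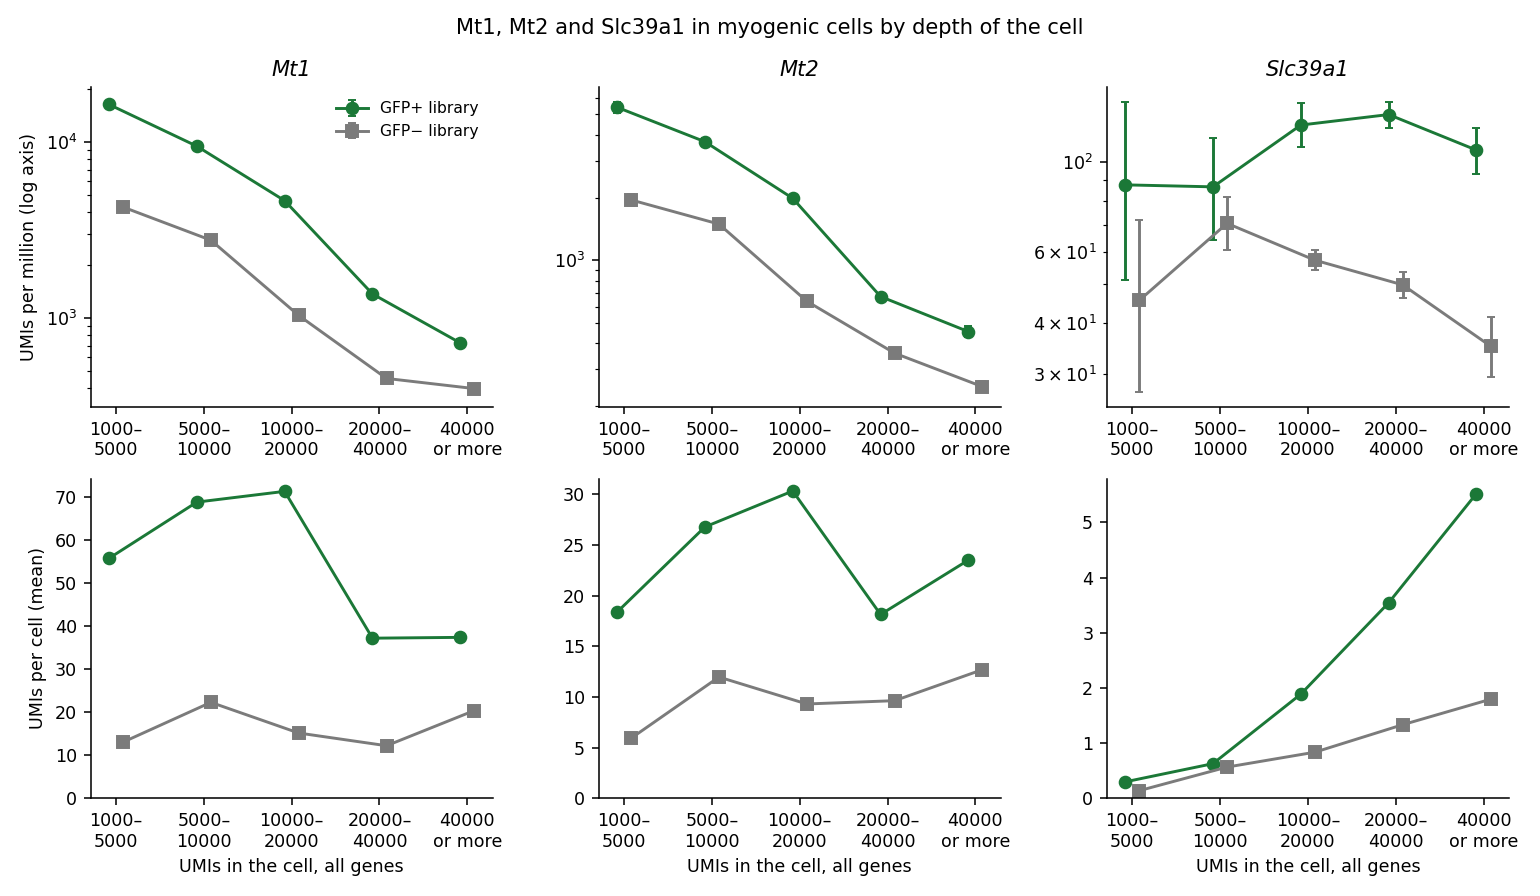
Mt1, Mt2 and Slc39a1 in myogenic cells by the total UMIs of the cell, as CPM (top, log axis, 95% counting intervals) and as mean UMIs per cell (bottom), GFP+ library as green circles and GFP− library as grey squares. Mt1 as CPM was lower in each deeper bin, down to 725 CPM in GFP+ and 399 CPM in GFP− cells, while Mt1 per cell stayed between 37.3 and 71.4 UMIs in GFP+ and between 12.2 and 22.3 UMIs in GFP− cells.

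The states differed in depth. Median UMIs were 11186 in Chodl-high, 29952 in Mki67-positive and 24932 in Myog-positive GFP+ cells, and 11783, 22455.5 and 17423 in the same GFP− states. Per cell, Chodl-high cells still held more Mt1, with 78.1 UMIs against 35.5 in other GFP+ cells (ratio 2.20) and 31.4 against 11.2 in other GFP− cells (ratio 2.79). Mt2 per cell was at 31.1 against 17.5 UMIs in GFP+ and 16.4 against 7.85 UMIs in GFP− cells. For Mki67-positive cells the per-cell ratio to other cells was 0.688 for Mt1 and 1.02 for Mt2 in the GFP+ library, and 0.820 and 0.952 in the GFP− library. Myog-positive cells lay at 0.759 and 0.777 in the GFP+ library and at 0.610 and 0.659 in the GFP− library. Slc39a1, lower as CPM in Myog-positive cells, had a per-cell ratio there of 1.03 (0.902 to 1.17) in GFP+ and 0.911 (0.829 to 1.001) in GFP− cells. Its per-cell ratio in Mki67-positive cells was 1.95 in GFP+ and 1.27 in GFP− cells.

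Within single ranges of depth the states separated differently. Chodl-high GFP+ cells had 2.03, 3.14, 1.44 and 2.78 times the Mt1 CPM of other GFP+ cells in the 4 bins under 40000 UMIs, with no Chodl-high cell above, and GFP− cells 3.75, 2.93, 2.79 and 3.77 times. Above 40000 UMIs the GFP− ratio was 1.33, on 9 Chodl-high cells. For Mt1 the Chodl difference was thus present at each depth where it could be measured, though smaller than 4.24 in every GFP+ bin. The GFP+ ratio of 1.44 and the GFP− ratio of 1.33 were under 1.5-fold. Mt2 ratios were 2.50, 2.14, 1.65 and 1.93 in the same GFP+ bins and 4.64, 2.32, 2.14 and 2.87 in the GFP− bins. Above 40000 UMIs the GFP− Mt2 ratio was 1.09 (0.900 to 1.31), an interval that holds 1. For Mki67-positive cells the difference shrank or turned at like depth in cells of 10000 UMIs or more, but not in shallower GFP− cells. In cells of 20000 to 40000 UMIs Mt1 was at 1023 against 1454 CPM in GFP+ (ratio 0.704) and at 451 against 459 CPM in GFP− cells (ratio 0.982, 0.935 to 1.03), and Mt2 at 695 against 665 CPM and 351 against 365 CPM. In cells of 40000 UMIs or more Mt1 was at 867 against 527 CPM in GFP+ cells (ratio 1.64, 24 Mki67-positive and 18 other cells) and at 398 against 403 CPM in GFP− cells. At 10000 to 20000 UMIs the Mt1 ratio was 0.625 on 9 Mki67-positive GFP+ cells and 0.728 in GFP− cells. At 5000 to 10000 UMIs the GFP− ratio was 0.495 (0.436 to 0.559) for Mt1 and 0.648 for Mt2, on 23 Mki67-positive cells. At 1000 to 5000 UMIs it was 0.0684 and 0.0251, on 9 Mki67-positive cells. The GFP+ library held only 1 and 2 Mki67-positive cells in these bins, too few to read.

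Myog-positive GFP− cells had less Mt1 in all 5 bins, at 0.427 to 0.731 times the other cells, and passed 1.5-fold in the 3 shallower ones. In the GFP+ library the 5 Mt1 ratios went both ways, at 0.401, 1.01, 1.55, 0.549 and 1.12, on 8, 8, 22, 68 and 21 Myog-positive cells. No single direction for Mt1 in Myog-positive GFP+ cells held across depths.

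Cells other than myogenic ones gave a check on the 5 genes and on free RNA. Macrophage-list cells held Mt1 at 787 CPM in the GFP+ (940 UMIs) and 516 CPM in the GFP− library (330 UMIs), but Mt2 at only 47.7 CPM (57 UMIs) and 70.4 CPM (45 UMIs). This is 0.750 Mt2 UMIs per macrophage-list cell in the GFP+ and 0.789 in the GFP− library, against 23.1 and 9.65 per myogenic cell. Thinned to 5000 UMIs, Mt2 was seen in 18.8% of 69 GFP+ and 11.4% of 44 GFP− macrophage-list cells, and in 83.7% and 75% of myogenic cells. Macrophage-list cells had a median of 13558 UMIs in the GFP+ and 8086 UMIs in the GFP− library before thinning. Macrophage-list Mt2 was 0.0422 times the myogenic level in the GFP+ and 0.124 times in the GFP− library, where 42.9% and 34.2% of genes were lower. Between libraries, macrophage-list cells had an Mt2 ratio of 0.678 (0.450 to 1.03) and an Mt1 ratio of 1.52, so the Mt1 difference was present there in part. An Mt1 UMI was seen in 71.0% of thinned GFP+ and 52.3% of thinned GFP− macrophage-list cells. No cell type known to lack Mt1 was at hand, and the part of free RNA in the Mt1 values was not tested.

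Empty droplets, barcodes of 1 to 100 UMIs, held Mt1 at 3359 CPM in the GFP+ and 1354 CPM in the GFP− library and Mt2 at 1035 and 613 CPM. The ratio of Mt1 to Mt2 UMIs, both counted at the 3′ end and not by length, was 3.24 in GFP+ and 2.21 in GFP− droplets. It was 2.29 (2.25 to 2.34) in GFP+ and 1.60 (1.58 to 1.63) in GFP− myogenic cells, and 16.5 (12.6 to 21.9) and 7.33 (5.36 to 10.2) in macrophage-list cells. The mixture of the 2 transcripts therefore differed both between cell types and between libraries. Within the myogenic sets it was highest in Chodl-high cells, at 2.51 in GFP+ and 1.91 in GFP−, and lowest in Mki67-positive cells, at 1.62 and 1.42. Slc39a1 stood at 115 CPM in GFP+ and 103 CPM in GFP− droplets, so in the GFP− library the droplets were above the 53.1 CPM of the myogenic cells.

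The exporter Slc30a1 had its highest level outside the myogenic cells. It reached 25.1 CPM in GFP+ (30 UMIs) and 42.3 CPM in GFP− macrophage-list cells (27 UMIs), 8.03 times (4.73 to 13.6) and 11.8 times (7.53 to 17.9) the myogenic level of the same library. Genes higher in macrophage-list than in myogenic cells by 1.5-fold made up 28.1% in the GFP+ and 27.6% in the GFP− library. Slc39a1 was at 127 CPM in GFP+ and 45.4 CPM in GFP− macrophage-list cells (152 and 29 UMIs), a ratio of 2.80 (1.88 to 4.33) where 8.53% of genes were higher. The Slc39a1 difference between the libraries was thus present in cells of another type as well. The 122 mural-list cells of the GFP− library held Mt1 at 1435 CPM and Mt2 at 298 CPM.

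Mt3 and Mt4 complete the metallothionein list and were named after their values were seen. Mt3, a form known from brain, was at 9.57 CPM in GFP+ and 4.20 CPM in GFP− myogenic cells (101 and 177 UMIs), a ratio of 2.28 (1.77 to 2.93) at a level under the 20 CPM limit. Mt4, known from stratified epithelium, had 0 and 4 UMIs. Among the 10 zinc exporters 2 had no UMI in either library and 2 were measured, Slc30a9 at 32.4 CPM in GFP+ and 29.8 CPM in GFP− cells and Slc30a5, which loads the secretory pathway, at 21.1 and 21.4 CPM. Neither passed 1.5-fold. Of 14 importers 6 were measured and Slc39a1 alone passed, beside the 3.79% of all genes given above. Slc39a13, an intracellular importer, was at 40.3 and 35.2 CPM (ratio 1.14), and Slc39a6 at 22.6 and 27 CPM (ratio 0.838). The median log2 ratio was 0.17 over the measured importers and 0.05 over the measured exporters, against -0.09 over all measured genes.

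**Figure D4:**
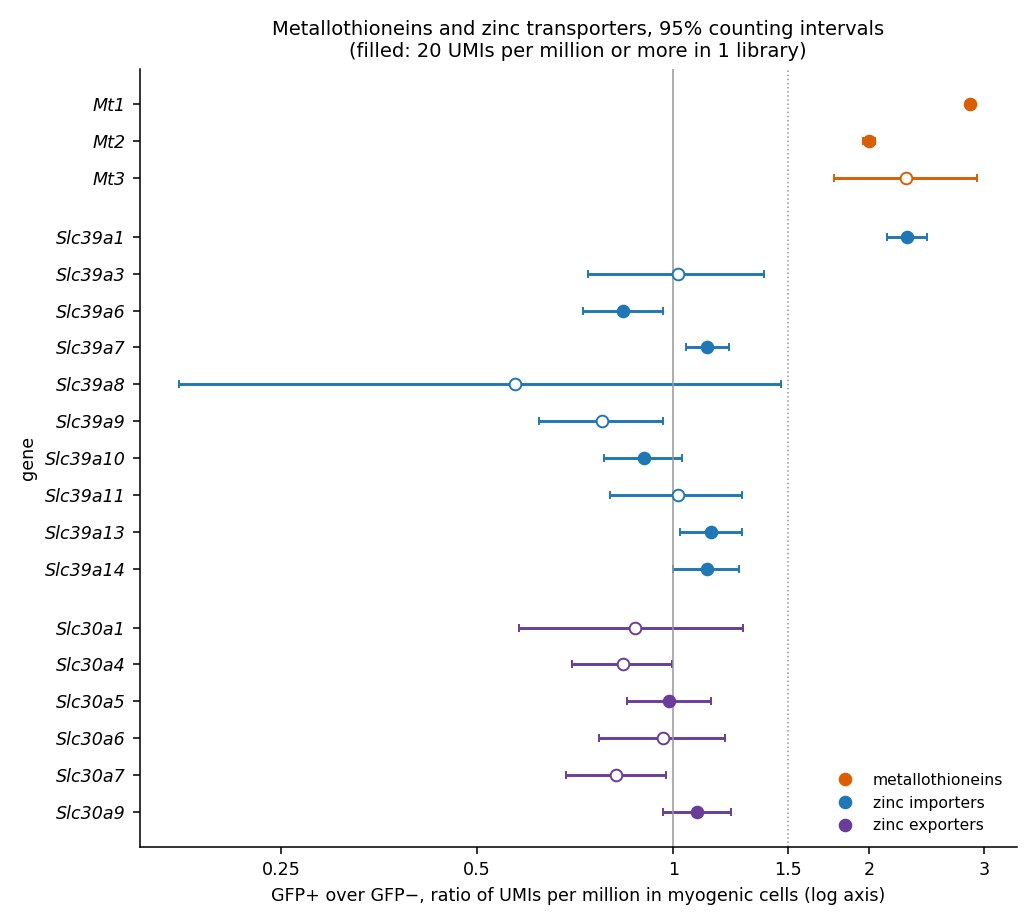
Ratio of GFP+ to GFP− levels in myogenic cells (log axis) for metallothioneins, zinc importers and zinc exporters with at least 40 UMIs over both libraries, with 95% counting intervals; the dotted line marks 1.5-fold. Mt1 at 2.86, Mt2 at 2.0, Mt3 at 2.28 and Slc39a1 at 2.28 stood right of it, and every other transporter shown had a ratio of 1.14 or less.

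The list of known MTF1 targets takes no account of the direction in which MTF1 acts on each gene. Of the 6 listed, 5 were measured and 2, Mt1 and Mt2, were higher in GFP+ cells, where 3.79% of all measured genes were. Gclc, an enzyme of glutathione synthesis, was at 31.2 CPM in GFP+ and 37.4 CPM in GFP− cells, a ratio of 0.834. The importer Slc39a10, named after its values were seen, was at 24.3 and 26.9 CPM, a ratio of 0.901. Whether MTF1 was active in these cells was not tested. In Chodl-high against other cells the list split, with Mt1 and Mt2 higher and Gclc and Selenoh, a selenoprotein, lower in both libraries, beside 15.7% of all genes higher and 17.6% lower in GFP+ and 8.85% and 10.4% in GFP− cells. Gclc was at 22.5 against 34.3 CPM in GFP+ and 20.6 against 40.7 CPM in GFP− cells. Selenoh, named after its values were seen, was at 71.4 against 169 CPM in GFP+ and 86.2 against 187 CPM in GFP− cells. Also named after its values were seen, Slc39a14, an importer of zinc and iron known to be induced by interleukin 6, was the single importer with higher CPM in Chodl-high cells, at 61.4 against 26.6 CPM in GFP+ (ratio 2.31) and 44.9 against 29.3 CPM in GFP− cells (ratio 1.53). Per cell its ratio was 1.20 in GFP+ and 1.12 in GFP− cells, under 1.5-fold in both.

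Genes of other metals, of oxidative stress and of hypoxia are read beside all measured genes, of which 3.79% were higher and 1.63% lower in GFP+ myogenic cells. At these shares a list this short can have no member past 1.5-fold without differing from other genes. Of 7 measured copper genes none passed 1.5-fold in myogenic cells, with Cox17, a copper chaperone of cytochrome oxidase, nearest at 247 CPM in GFP+ and 167 CPM in GFP− cells (ratio 1.48). Atox1, which hands copper to the copper pumps, was at 217 and 175 CPM and Commd1 at 135 and 151 CPM. Of 6 measured iron genes none passed, with the ferritin light chain Ftl1 at 856 and 1097 CPM, Ireb2 at 27.3 and 33.1 CPM and Hmox1 at 21.9 and 19.1 CPM. NRF2 targets, which answer oxidative stress, had 1 of 5 measured members higher, Osgin1 at 20.8 and 10.3 CPM. The 1 measured hypoxia gene, Ndrg1, was at 59.5 and 58.6 CPM.

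Between the libraries 3.79% of all measured genes were higher in GFP+ myogenic cells, and the next 3 lists are read beside that share. In the IL6-STAT3 list 3 of 7 measured genes were higher in GFP+ cells: the transcription factor Cebpd at 289 CPM in GFP+ and 123 CPM in GFP− cells (ratio 2.35), its relative Cebpb at 556 and 266 CPM (ratio 2.10) and the feedback inhibitor Socs3 at 290 and 172 CPM (ratio 1.68). In the glucocorticoid list 2 of 7 were higher, Klf9 at 214 and 126 CPM and the phosphatase Dusp1 at 96.2 and 57.9 CPM, while Sgk1 was at 273 and 202 CPM (ratio 1.35). In the dissociation stress list 8 of 11 were higher, led by Atf3 at 89.3 and 18.1 CPM, Nr4a1 at 54.0 and 17.7 CPM and Jund at 1683 and 727 CPM. The median log2 ratio was 0.27 for the IL6-STAT3, 0.24 for the glucocorticoid and 0.83 for the dissociation stress list, against -0.09 over all measured genes.

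In CPM, many genes of these lists stood higher in Chodl-high cells. Of the IL6-STAT3 genes, 8 of 8 measured were higher there among GFP+ cells and 6 of 7 among GFP− cells, as were 11 of 11 dissociation stress genes in both, beside the 15.7% and 8.85% of all genes given above. Per cell fewer passed 1.5-fold, with 4 of 8 IL6-STAT3 genes in GFP+ and 4 of 7 in GFP− cells, and 6 of 11 stress genes in GFP+ and 8 of 11 in GFP− cells. Cebpd was at 753 against 121 CPM in GFP+ and 319 against 85 CPM in GFP− cells, and Cebpb at 1337 against 274 CPM and 658 against 189 CPM. Glucocorticoid genes were split, with 4 of 7 higher and 1 lower in the GFP+ library and 3 of 6 higher in the GFP− library. Per cell 1 of 7 was higher and 2 lower in GFP+ cells, and 3 of 6 higher and 1 lower in GFP− cells. The share of all genes past 1.5-fold per cell was not taken. Chodl-high cells were shallower, which puts each per-cell ratio below its CPM ratio. The per-cell counts of these lists can therefore not be read beside the 15.7% and 8.85%. Klf9 reached 443 against 131 CPM in GFP+ and 262 against 99.95 CPM in GFP− cells.

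Cell by cell, Mt1 and Mt2 went together. Over myogenic cells thinned to 5000 UMIs the Pearson correlation of log(1 + UMIs) between them was 0.79 in 460 GFP+ cells and 0.69 in 2342 GFP− cells. Ranked by the lower of the correlations in the libraries among 2583 genes of at least 50 CPM in both, the genes most like Mt1 after Mt2 were Cebpb (0.61 in GFP+ and 0.51 in GFP− cells), Errfi1 (0.62 and 0.50), Apoe (0.50 and 0.46), Sdc4 (0.60 and 0.45) and Chodl (0.55 and 0.44). The 6 genes most like Mt2 were Mt1 and these 5, with Cebpb at 0.56 and 0.44. Errfi1 is a feedback inhibitor of the EGF receptor, Apoe a lipid carrier and Sdc4 a heparan sulphate proteoglycan of satellite cells. These cells share their library and differ in state, so the values describe co-occurrence only. The likeness of Mt1 and Mt2 also held within states, at 0.77 in Chodl-high and 0.70 in the other GFP+ cells and at 0.74 and 0.60 in the GFP− library.

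Mt1 in thinned cells also correlated with the depth of the cell before thinning, at -0.55 in GFP+ and -0.35 in GFP− myogenic cells, and with the share of the dissociation stress list, at 0.46 and 0.25. Within Chodl-high cells the correlation with the stress list was 0.36 in GFP+ and 0.07 in GFP− cells, and outside them 0.18 and 0.15. With the mitochondrial share it was -0.10 and 0.14. Slc39a1 did not go with Mt1, at -0.09 in GFP+ and 0.03 in GFP− cells. For Slc39a1, Mtf1 and Slc30a1 no gene reached a correlation above 0.10 in both libraries, at counts too sparse to read a likeness from. A cell-by-cell pattern of the importer, the regulator or the exporter was not detectable at this depth.

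Cells with at least 3 UMIs of Erfe, the erythroferrone gene, were also left out in turn. Without them the GFP+ to GFP− ratio in myogenic cells was 2.54 for Mt1 and 1.83 for Mt2. Barcodes that missed only the mitochondrial limit, 32 in the GFP+ and 343 in the GFP− library, held Mt1 at 510 and 479 CPM and Mt2 at 286 and 144 CPM, all below the cells that were kept. Reads shared between the neighbouring metallothioneins could blur their counts. The principal transcripts of 549 bases for Mt1 and 511 bases for Mt2 share no identical run over 20 bases, and none over 10 bases in their last 150. Matches with mismatches and other transcripts were not compared, so the extent of such blurring was not tested.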

How the data were processed

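The deposited files give unnormalised counts of UMIs for each gene in each barcode, empty droplets included, made with Cell Ranger 4 per the file headers; the submitters' processing notes name Cell Ranger, Seurat and the build mm10, and the sources used here do not state the annotation or the counting settings. The GFP+ library held 13928952 UMIs over 718416 barcodes and the GFP− library 49709323 over 1361552. UMIs were summed over cells and divided by the sum of all genes in the same cells (CPM). Ratios carry exact conditional (Clopper-Pearson) intervals, levels exact Poisson and shares exact binomial intervals, at 95%. With 1 library per group no test was run. Doublets were not removed; leaving out cells over 3 times the median UMIs was an alternative. Thinning to 5000 UMIs left out 57 GFP+ and 130 GFP− myogenic cells. The myogenic set was chosen by its low share of other types' markers, so their low level there is no finding. The members, lists and cuts were chosen with earlier results of these data known. Named genes were the 5 members, up to 3 measured genes per list with the largest log2 ratio between the libraries, and the 6 most like Mt1 and Mt2; genes named in other ways are marked. Calculations were tested on simulated counts. Promoters came from RefSeq (GRCm38.p6), where all 5 genes matched by symbol, and positions from GENCODE M21. TMM factors alone came from edgeR 4.0.16 (R 4.3.3). Sums and intervals used scipy 1.17.1, numpy 2.4.6 and pandas 2.3.3 under Python 3.11.15, and plots matplotlib 3.10.9.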

Additional observations from a re-analysis of the deposited data

How the results depend on the processing

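Between GFP+ and GFP− myogenic cells, Mt1 ran from 1.82 to 4.49, Mt2 from 1.67 to 3.11 and Slc39a1 from 1.23 to 3.05 over 17 alternatives, all above 1.5-fold except Slc39a1 in cells of 5000 to 10000 UMIs. Values outside the counting interval of the reported ratio were, for Mt1 and Mt2, 2.67 and 1.90 at 5000 UMIs per cell or more, 3.34 and 2.24 at 5% mitochondrial UMIs or less, 2.96 and 2.07 with edgeR TMM factors, 3.75 and 2.56 as the mean of each cell's CPM, and 3.34 and 2.27 for cells thinned to 5000 UMIs. With alternatives chosen after seeing the data they were 3.42 and 2.39 as UMIs per cell, 2.54 and 1.83 without cells of at least 3 Erfe UMIs, and 2.28 and 1.67 with states weighted alike. By depth they were 3.83 and 2.78 at 1000 to 5000 UMIs, 3.42 and 2.48 at 5000 to 10000, 4.49 and 3.11 at 10000 to 20000, 3.02 and 1.87 at 20000 to 40000, and 1.82 and 1.84 at 40000 or more. For Slc39a1 they were 2.06 as the mean of each cell's CPM, 2.08 for thinned cells and 2.73 as UMIs per cell, and in the bins other than 10000 to 20000 UMIs 1.93, 1.23, 2.64 and 3.05. Of the 12 reported state calls 6 passed in the same direction in cells of 10000 to 20000 UMIs. There the GFP+ ratio of Myog-positive to other cells turned to 1.55 for Mt1 and 1.26 for Mt2, and that of Mki67-positive cells to 1.04 for Mt2, which was 1.02 as UMIs per cell and 1.04 at 20000 to 40000 UMIs. At 40000 UMIs or more Myog-positive GFP+ cells had an Mt1 ratio of 1.12. Slc30a1 in Chodl-high GFP+ cells, on 12 UMIs, turned to 0.767 with states called among all cells and 0.822 as UMIs per cell. Counts of zinc transporters and metallothioneins past 1.5-fold in either direction went to 9 with no minimum level, against 3, all higher. The added genes, named after their values were seen, went both ways. Higher were Mt3 and Slc30a2 (3 UMIs in each library). Lower were Slc30a3 (0 UMIs in GFP+ and 1 in GFP−), Slc39a4 (0 and 3), Slc39a8 (5 and 35) and Mt4 (0 and 4). No share over all genes was taken without a minimum level. The causes were not tested beyond the depth values in the report. No paired analysis was possible because each group has 1 library, and for the same reason no replicate could be left out.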
